A study of Mus musculus with 12 samples.

Results

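Regulatory T cells (Treg) restrain other immune cells, yet they can also transcribe cytokines that are better known from helper T cells. The 10 genes described here encode such cytokines and the lymphotoxins: Il3, Il4, Il5, Il13, Il9, Il22, Tnf, Lta, Ltb and Lif, which are 10 of the 41457 genes in the tables. They were chosen by name, with earlier results of these data known. RNA of RFP+CD4+ T cells sorted from mouse spleen was sequenced in 12 libraries, 3 in each of 4 groups. CD18Foxp3 mice were CD18 fl/fl and carried Foxp3-Cre, so that exon 3 of Itgb2, the gene of the β2-integrin chain CD18, was deleted in cells that express Foxp3. CD18wt controls were CD18 wt/wt littermates that also carried Foxp3-Cre, and all mice had the RFP reporter in Foxp3+ cells. Mice were matched for age and sex, and their ages were not given in the sources used here. Cells of each genotype were cultured overnight in 5 U/ml IL-2 alone (unstimulated) or with 1 µg/ml anti-CD3 and 2 µg/ml anti-CD28 (stimulated), antibodies that engage the T cell receptor complex and its costimulatory receptor. The labels number the biological replicates within each group, so the p-values measure the spread between the libraries of these replicates.

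Il4, Il5 and Il13 form the type 2 cytokine cluster and act in allergy and in defence against worms, and Il3, a growth factor of basophils and mast cells, lies near them on the same chromosome. Tnf and Lta encode ligands that bind TNF receptors as homotrimers, while lymphotoxin β, the product of Ltb, anchors lymphotoxin α in the membrane and signals through the lymphotoxin β receptor in the formation of lymphoid tissue. Lif belongs to the IL-6 family, Il9 acts on mast cells and Il22 on epithelia. In T cells most of these genes are switched on after engagement of the T cell receptor, through factors of the NFAT, AP-1 and NF-κB families.

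Promoter sequences are shown for members called higher after stimulation (Il3, Il13, Tnf, Lta and Lif), for Il4 as a neighbour of Il13, and for Ltb as the member that fell. They are the bases directly before the gene start in RefSeq (GRCm38.p6), where all 10 members had a promoter entry, written 5′ to 3′ and ending before the gene start of the deposited tables. Capitals mark the letters GGAAA on either strand (TTTCC on the other), the core that NFAT proteins bind.
Il3 (chr11:54267280-54267529, minus strand): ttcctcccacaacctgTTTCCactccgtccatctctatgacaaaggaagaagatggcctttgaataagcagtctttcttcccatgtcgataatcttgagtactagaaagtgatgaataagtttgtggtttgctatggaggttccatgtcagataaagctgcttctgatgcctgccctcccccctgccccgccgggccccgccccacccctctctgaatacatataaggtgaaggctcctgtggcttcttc
Il4 (chr11:53618670-53618915, minus strand): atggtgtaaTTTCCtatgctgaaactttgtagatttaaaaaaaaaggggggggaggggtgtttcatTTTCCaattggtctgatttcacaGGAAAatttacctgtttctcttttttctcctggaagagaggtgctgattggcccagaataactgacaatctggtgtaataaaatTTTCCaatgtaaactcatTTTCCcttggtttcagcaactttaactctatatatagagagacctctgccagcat
Il13 (chr11:53634703-53634952, minus strand): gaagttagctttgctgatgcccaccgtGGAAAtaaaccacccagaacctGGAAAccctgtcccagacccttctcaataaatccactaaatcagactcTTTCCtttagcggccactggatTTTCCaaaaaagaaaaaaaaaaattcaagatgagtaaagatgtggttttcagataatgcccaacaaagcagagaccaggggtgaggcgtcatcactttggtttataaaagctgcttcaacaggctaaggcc
Tnf (chr17:35202008-35202257, minus strand): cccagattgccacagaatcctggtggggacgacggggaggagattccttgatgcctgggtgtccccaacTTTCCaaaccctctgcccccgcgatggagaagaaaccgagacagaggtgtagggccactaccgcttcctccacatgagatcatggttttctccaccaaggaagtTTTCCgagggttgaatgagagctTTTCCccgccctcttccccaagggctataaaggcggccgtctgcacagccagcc
Lta (chr17:35205352-35205601, minus strand): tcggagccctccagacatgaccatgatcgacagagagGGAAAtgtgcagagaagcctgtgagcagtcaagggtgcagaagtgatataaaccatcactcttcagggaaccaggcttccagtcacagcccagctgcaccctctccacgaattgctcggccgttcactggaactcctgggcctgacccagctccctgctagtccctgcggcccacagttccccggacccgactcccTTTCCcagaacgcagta
Ltb (chr17:35194257-35194438, plus strand): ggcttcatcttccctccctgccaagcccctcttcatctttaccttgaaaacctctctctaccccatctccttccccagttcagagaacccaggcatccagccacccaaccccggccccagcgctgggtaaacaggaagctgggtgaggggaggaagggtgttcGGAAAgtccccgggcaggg
Lif (chr11:4257318-4257556, plus strand): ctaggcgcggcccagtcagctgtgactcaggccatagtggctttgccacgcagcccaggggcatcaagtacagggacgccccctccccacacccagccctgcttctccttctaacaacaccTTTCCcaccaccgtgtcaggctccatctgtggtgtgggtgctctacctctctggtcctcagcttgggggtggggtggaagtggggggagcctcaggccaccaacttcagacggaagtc
Over the 250 bases before the RefSeq start, this motif was found 5 times for Il4, 4 times for Il13, 3 times for Tnf, and of the others, 3 times for Il9, 2 times for Lta and Il5 and 1 time each for Il3, Ltb, Il22 and Lif. The Il4 entry used is the one at the deposited gene start, and a second entry within the gene held no match. Of 32851 mouse promoters of the same length, 55.6% held it at least 1 time, 21.4% at least 2 times, 6.39% at least 3 times and 1.59% at least 4 times. A consensus of NF-κB was matched in the windows of Ltb and Lif and in 7.25% of all promoters. The match in Ltb overlaps the capitals. These matches describe letters, not bound sites.

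The libraries held 10665174 to 19005482 exon reads. Foxp3 reached 73.4 to 108 TPM (the deposited level, exon reads per exon length scaled to a constant sum) in the 6 unstimulated and 133 to 207 TPM in the 6 stimulated libraries, and all 6 listed Treg markers (Foxp3, Il2ra, Ctla4, Ikzf2, Cd4 and Cd3e) were read in every group. By the test of exon counts given below, Foxp3 had log2 fold changes on stimulation of 0.37 in CD18wt and 0.53 in CD18Foxp3 Treg and was not called. In both genotypes Il2ra was called higher and Cd4 and Cd3e lower. Ctla4 and Ikzf2 were called higher in CD18Foxp3 Treg (1.94 and 0.90). They were not called in CD18wt Treg (1.02 and 0.35, adjusted p = 0.0531 and 0.0549, edgeR). The difference of these responses between the genotypes did not pass (adjusted p = 0.987 for both, edgeR). Itgb2, of which exon 3 alone is deleted in these mice, had 465, 431 and 387 TPM in unstimulated CD18wt and 229, 257 and 234 TPM in unstimulated CD18Foxp3 libraries. After stimulation it had 331, 329 and 330 TPM in CD18wt and 131, 202 and 183 TPM in CD18Foxp3 libraries. Unstimulated CD18wt replicate 3 stood apart, with the lowest depth and with 311 TPM of the AP-1 gene Junb where the other 5 unstimulated libraries had 2416 to 3711 TPM. Stimulated CD18Foxp3 replicate 1 stood apart with 239 TPM of Junb where the other 5 stimulated libraries had 627 to 767 TPM. Results that moved with these libraries are also given without them where they are described.

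Stimulation raised the RNA of Tnf, Lta, Lif and Il3 and lowered that of Ltb in Treg of both genotypes, and it raised Il13 in CD18Foxp3 Treg. Il3, Il5 and Il9 were not read in any unstimulated library, whereas Ltb had the highest mean TPM of the members in all 4 groups. In 2 stimulated libraries, CD18wt replicate 3 and CD18Foxp3 replicate 1, Lta lay above Ltb. Exon counts were compared by edgeR's quasi-likelihood test, and a gene was called at a fold change of 1.5 or more and an adjusted p (Benjamini-Hochberg) of 0.01 or less. In CD18wt Treg 6 members had enough reads for the test, of which 4 were called higher and 1 lower, while 33.6% of all tested genes were called, 18.7% higher and 14.9% lower. In CD18Foxp3 Treg 7 members were tested, of which 5 were called higher and 1 lower, against 38.6% of all tested genes, 20.9% higher and 17.6% lower. The median log2 fold change of the tested members was 3.24 in CD18wt and 3.04 in CD18Foxp3 Treg, and that of all tested genes was 0.02 and 0.01. Il3 in both genotypes and Il13 in CD18Foxp3 Treg had enough reads for the test through stimulated libraries alone. Their place among the members called higher and in these medians was thus set by the choice of tested genes. Without unstimulated CD18wt replicate 3, 5 members were called in CD18wt Treg. Without stimulated CD18Foxp3 replicate 1, 8 members were tested in CD18Foxp3 Treg and again 6 were called, but Il3 was no longer called and Il5 was. With at least 10 reads required in every library, 4 members were tested in CD18wt Treg, of which 3 were called higher and 1 lower (median 3.24). In CD18Foxp3 Treg 5 were then tested, of which 3 were called higher and 1 lower (median 2.36). Of all genes tested in this way, 3772 of 10413 and 4297 of 10696 were called. Within each gene, TPM of the stimulated and unstimulated libraries did not overlap in either genotype for Tnf, Lta, Lif and Il3 (higher) and for Ltb (lower). Among all tested genes TPM did not overlap in this way for 47.8% (higher) and 14.2% (lower) in CD18wt, and for 47.9% and 19.2% in CD18Foxp3 Treg. On the TPM scale the median gene itself rose by 0.36 in CD18wt and by 0.31 in CD18Foxp3 Treg (log2(TPM + 1)), and the split of called genes moved with it: 2234 higher and 1779 lower by counts became 3589 and 858 in CD18wt, and 2516 and 2120 became 3783 and 1201 in CD18Foxp3 Treg (limma).

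**Figure D1:**
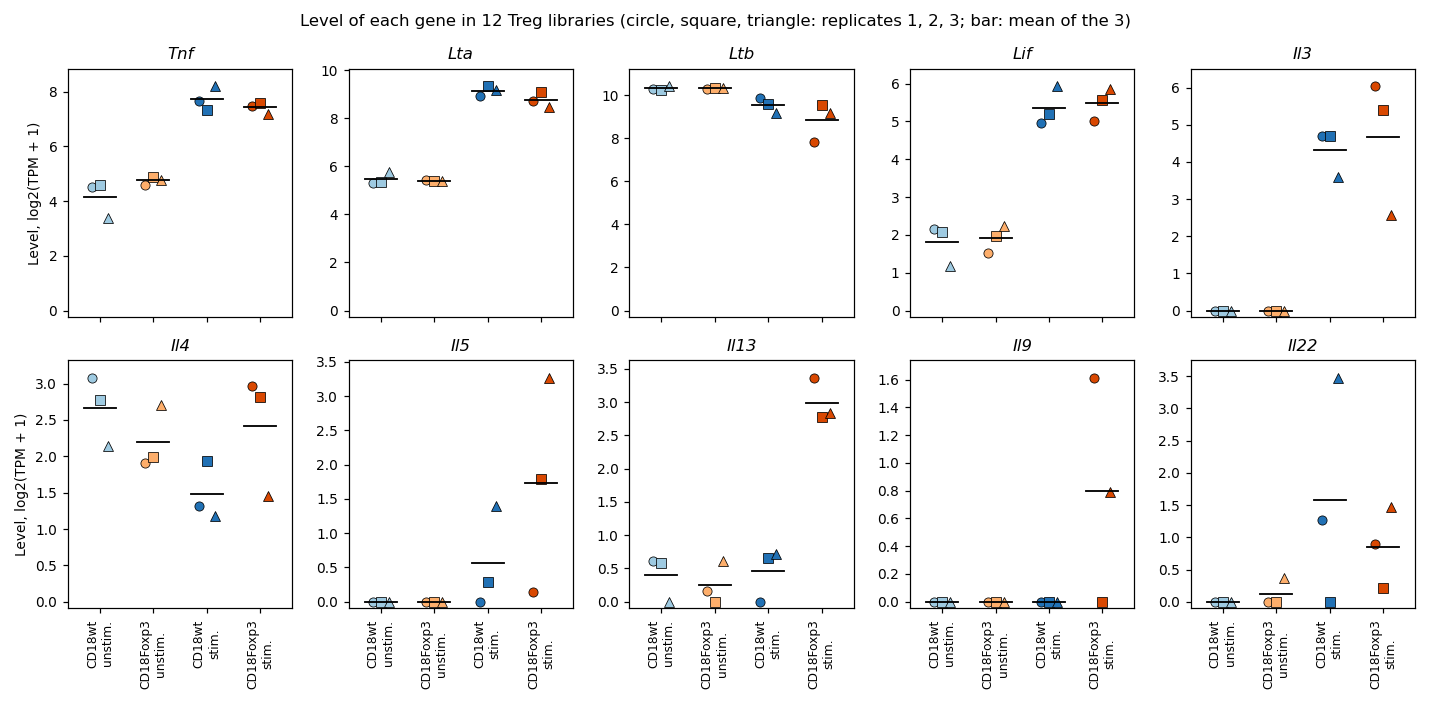
Level of the 10 genes as log2(TPM + 1) (vertical axes, which differ between panels) in the 12 libraries, by genotype and culture. Circles, squares and triangles are replicates 1, 2 and 3 and the bar is their mean. Tnf, Lta, Lif and Il3 lie higher and Ltb lower in all stimulated libraries, and Il13 is high in the 3 stimulated CD18Foxp3 libraries alone.

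Tnf (ENSMUSG00000024401, GRCm38 chromosome 17, 35199381 to 35202007, minus strand) encodes tumour necrosis factor, a proinflammatory ligand that is shed from the membrane. It had 22.1, 23.1 and 9.31 TPM in unstimulated CD18wt libraries and 23.3, 28.7 and 26.5 TPM in unstimulated CD18Foxp3 libraries. After stimulation it had 204, 159 and 292 TPM in CD18wt and 177, 193 and 146 TPM in CD18Foxp3 libraries. The genotypes overlapped after stimulation, whereas every unstimulated CD18Foxp3 library lay above the CD18wt libraries, of which replicate 3 was the lowest. Stimulation raised Tnf by a log2 fold change of 3.16 (standard error, SE, 0.31, adjusted p = 5.49e-05, edgeR) in CD18wt Treg and of 2.35 (SE 0.15, adjusted p = 3.54e-06, edgeR) in CD18Foxp3 Treg. Without unstimulated CD18wt replicate 3, the rise in CD18wt Treg was 2.89 (adjusted p = 1.84e-06, edgeR).

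Lta (ENSMUSG00000024402, chromosome 17, 35203165 to 35205351, minus strand) lies next to Tnf and encodes lymphotoxin α. Unstimulated libraries had 38.4, 39.9 and 52.7 TPM in CD18wt and 42.2, 40.6 and 41.4 TPM in CD18Foxp3 Treg. Stimulated libraries had 492, 640 and 584 TPM in CD18wt and 421, 543 and 354 TPM in CD18Foxp3 Treg. All stimulated libraries thus lay far above all unstimulated ones, and the genotypes overlapped in both cultures. The log2 fold change of Lta on stimulation was 3.32 (SE 0.20, adjusted p = 1.52e-07, edgeR) in CD18wt and 3.04 (SE 0.16, adjusted p = 1.95e-06, edgeR) in CD18Foxp3 Treg. Intron reads of Lta, which can come from unspliced RNA, numbered 67 in the 6 unstimulated and 1183 in the 6 stimulated libraries. The microRNA gene Mir6974 lies within Lta on the same strand with 35 exon reads in all, and the preparation did not mark strand.

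Ltb (ENSMUSG00000024399, chromosome 17, 35194439 to 35196320, plus strand) encodes lymphotoxin β and is transcribed towards Tnf from its other side. It had 1260.1, 1196 and 1350.1 TPM in unstimulated CD18wt libraries and 1259.5, 1278 and 1267 TPM in unstimulated CD18Foxp3 libraries. These 6 values lay close together, and the genotypes overlapped. After stimulation Ltb had 930.1, 776 and 573 TPM in CD18wt and 229, 753 and 574 TPM in CD18Foxp3 libraries, with replicate 1 of the latter well below the other 5. Its log2 fold change was -1.14 (SE 0.19, adjusted p = 2.43e-04, edgeR) in CD18wt Treg. It was -1.67 (SE 0.33, adjusted p = 0.00219, edgeR) in CD18Foxp3 Treg. Without stimulated CD18Foxp3 replicate 1 it was -1.34 (adjusted p = 4.82e-07, edgeR). Without stimulated CD18Foxp3 replicate 3 the fall did not pass the threshold (adjusted p = 0.0132, edgeR).

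Tnf and Lta thus rose and Ltb fell within a short stretch of chromosome 17. Relative to the start of Tnf, that of Lta lies at 3.34 kb and that of Ltb at -7.57 kb. Other tested genes within 50 kb of Tnf changed less. Prrc2a had a log2 fold change of 0.57 in CD18wt (adjusted p = 0.00323, edgeR) and 0.41 in CD18Foxp3 Treg (adjusted p = 0.0984, edgeR). Ddx39b, an RNA helicase gene, had 0.46 (adjusted p = 0.0104, edgeR) and 0.40 (adjusted p = 0.00619, edgeR). Nfkbil1 had -0.44 in CD18wt and -1.03 in CD18Foxp3 Treg (adjusted p = 0.102 and 0.0680, edgeR). Atp6v1g2 had -0.57 and -0.82 (adjusted p = 0.458 and 0.135, edgeR), and Lst1 -0.59 and -0.38 (adjusted p = 0.499 and 0.623, edgeR). None of these 5 neighbours was called in either genotype, with Prrc2a and Ddx39b under the fold change of 1.5. Of all tested genes 33.6% in CD18wt and 38.6% in CD18Foxp3 Treg were called.

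**Figure D2:**
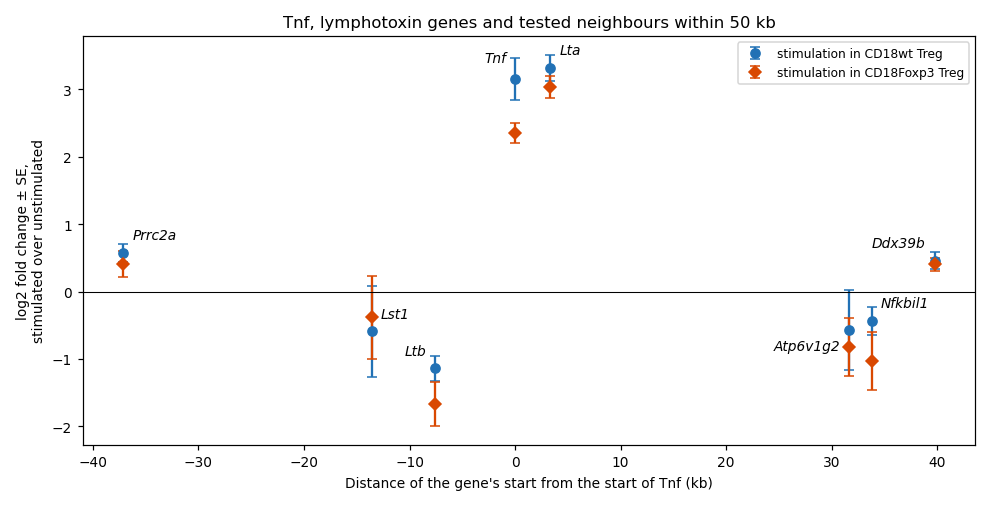
Log2 fold change on stimulation with its standard error (SE) (vertical axis) of Tnf, Lta, Ltb and the tested genes within 50 kb, by the distance of their start from the start of Tnf (horizontal axis, kb), in CD18wt (circles) and CD18Foxp3 Treg (diamonds). Tnf and Lta rise by 2.35 to 3.32, Ltb falls in both genotypes and the neighbours lie between.

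Lif (ENSMUSG00000034394, chromosome 11, 4257557 to 4272514, plus strand) encodes leukaemia inhibitory factor. Its level was 3.48, 3.21 and 1.25 TPM in unstimulated CD18wt and 1.87, 2.91 and 3.73 TPM in unstimulated CD18Foxp3 libraries. It was 30.2, 35.7 and 59.7 TPM in stimulated CD18wt and 31.2, 46.7 and 56.6 TPM in stimulated CD18Foxp3 libraries. The genotypes overlapped in both cultures, and no unstimulated library reached the stimulated ones. Lif rose by a log2 fold change of 3.55 (SE 0.35, adjusted p = 3.31e-05, edgeR) in CD18wt and of 3.62 (SE 0.28, adjusted p = 1.04e-05, edgeR) in CD18Foxp3 Treg. Without unstimulated CD18wt replicate 3, in which Lif was lowest, the rise in CD18wt Treg was 3.27 (adjusted p = 1.07e-05, edgeR). Osm, which encodes a cytokine of the same family and lies 16531 bases away, had log2 fold changes of 0.05 and 0.10 and was not called.

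Il3 (ENSMUSG00000018914, chromosome 11, 54265303 to 54267277, minus strand) held no read in the 6 unstimulated libraries, and a library without a read allows up to 3 reads, a limit that covers counting error only. It held 61, 90 and 36 exon reads (25.2, 24.9 and 11.1 TPM) in stimulated CD18wt libraries. It held 257, 144 and 16 exon reads (64.5, 41.2 and 4.97 TPM) in stimulated CD18Foxp3 libraries, whose lowest and highest values lay outside the CD18wt range on both sides. Against a floor of 3 reads over the unstimulated group, Il3 was at least 63.0-fold higher in stimulated CD18wt Treg (adjusted p = 6.71e-05, edgeR). It was at least 137-fold higher in stimulated CD18Foxp3 Treg (adjusted p = 0.00194, edgeR), and without replicate 1 of that group adjusted p was 0.0227 (edgeR). Csf2, the gene of GM-CSF, lies 15636 bases from Il3 and rose by log2 fold changes of 5.78 (SE 0.95) and 4.18 (SE 0.90) in CD18wt and CD18Foxp3 Treg (adjusted p = 2.44e-04 and 0.00339, edgeR).

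Il13 (ENSMUSG00000020383, chromosome 11, 53631324 to 53634702, minus strand) encodes interleukin-13, an effector of type 2 immunity. It held 4, 4 and 0 exon reads in unstimulated CD18wt and 1, 0 and 4 in unstimulated CD18Foxp3 libraries. Stimulated CD18wt libraries held 0, 4 and 4 reads, and stimulated CD18Foxp3 libraries held 71, 39 and 38 reads (9.30, 5.82 and 6.16 TPM). All reads of Il13 were placed uniquely, and the stimulated CD18Foxp3 libraries lay above all other 9. In CD18Foxp3 Treg the log2 fold change on stimulation was 4.59 (SE 0.73, adjusted p = 5.94e-04, edgeR), and it was 4.09 to 6.12 when single libraries were left out. In CD18wt Treg, with 8 reads in each culture, Il13 had too few reads to pass the filter. It had a log2 fold change of -0.09 there without the filter (SE 1.68, adjusted p = 0.978, edgeR) and of -0.13 with all 12 libraries in 1 fit (SE 1.03, adjusted p = 0.926, edgeR).

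Il4 (ENSMUSG00000000869, chromosome 11, 53602982 to 53618669, minus strand), whose cytokine drives type 2 helper cells, lies 12655 bases from Il13. Its exon reads were 58, 48 and 17 in unstimulated CD18wt and 24, 21 and 42 in unstimulated CD18Foxp3 libraries. They were 7, 20 and 8 in stimulated CD18wt and 53, 41 and 11 in stimulated CD18Foxp3 libraries. In TPM all stimulated CD18wt libraries (1.26 to 2.84) lay under the unstimulated ones (3.41 to 7.45), whereas in CD18Foxp3 Treg the cultures overlapped. The log2 fold change was -1.92 (SE 0.61, adjusted p = 0.0183, edgeR) in CD18wt Treg, which missed the threshold, and 0.03 (SE 0.53, adjusted p = 0.958, edgeR) in CD18Foxp3 Treg. In CD18wt Treg Il4 passed the threshold by DESeq2 (adjusted p = 0.00672) and in 4 of 11 alternatives in all. With single libraries left out it passed in 0 of 6 fits (adjusted p = 0.0127 to 0.0974, edgeR). About as many Il4 reads fell in introns in both cultures, 94 in unstimulated and 95 in stimulated libraries, against 210 and 140 exon reads. Rad50, a DNA repair gene that lies between Il13 and Il5, rose by a log2 fold change of 0.68 (adjusted p = 8.87e-04, edgeR) in CD18Foxp3 Treg and had 0.56 in CD18wt Treg (adjusted p = 0.00700, edgeR), where it stayed under the fold change of 1.5. Kif3a on the other side of Il4 was not called in either genotype.

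Il5 (ENSMUSG00000036117, chromosome 11, 53720794 to 53725106, plus strand), the growth factor of eosinophils, was not read without stimulation. The reads numbered 0, 2 and 13 in stimulated CD18wt and 1, 21 and 68 in stimulated CD18Foxp3 libraries. Reads thus came mostly from replicate 3 of each genotype, and 91.4% of them were placed uniquely. Over the group Il5 was at least 5.05-fold higher in stimulated than in unstimulated CD18wt Treg and at least 29.6-fold higher in CD18Foxp3 Treg, both against 3 reads. For stimulation it did not pass the filter on low counts. Without that filter Il5 was called in CD18Foxp3 Treg (adjusted p = 1.62e-09, edgeR) and not in CD18wt Treg (adjusted p = 0.0750, edgeR), and with all 12 libraries in 1 fit it was called in neither (adjusted p = 0.0145 and 0.128). It passed the filter in CD18Foxp3 Treg when 1 of 4 libraries was left out, and was called without stimulated replicate 1 (adjusted p = 4.93e-04, edgeR), which held 1 read, but not in the other 3 fits (adjusted p = 0.0392 to 0.0445, edgeR). In these 4 fits Il5 passed the filter through stimulated libraries alone. The gene Gm12214 overlaps Il5 on the other strand with 4 reads in all.

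Il9 (ENSMUSG00000021538, chromosome 13, 56479277 to 56482246, minus strand) was the member with the fewest reads. Only stimulated CD18Foxp3 libraries held any, with 7, 0 and 2. Il22 (ENSMUSG00000074695, chromosome 10, 118204942 to 118210047, plus strand) held 2 reads in unstimulated Treg, in 1 CD18Foxp3 library. There were 6, 0 and 58 reads in stimulated CD18wt and 6, 1 and 10 reads in stimulated CD18Foxp3 libraries, so that 1 CD18wt library gave most of them. Only 56.6% of the Il22 reads were placed uniquely. The near-identical gene Iltifb was listed without an exon read in all 12 libraries, so reads of the pair cannot be assigned with certainty. Il9 did not pass the filter in any comparison, nor did Il22 for stimulation. Without the filter Il9 was not called for stimulation in CD18Foxp3 Treg (adjusted p = 0.107, edgeR) or between stimulated genotypes (adjusted p = 0.821, edgeR). Il22 was then called for stimulation in CD18wt Treg (log2 fold change 7.26, SE 1.64, adjusted p = 6.36e-05, edgeR), where 58 of 64 stimulated reads came from replicate 3, and not in CD18Foxp3 Treg (2.74, SE 1.55, adjusted p = 0.174, edgeR).

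The 2 responses were also read together, with the libraries of each genotype permuted within that genotype. By this exact permutation test, two-sided on log2(TPM + 1) with 400 arrangements, Il3, Tnf, Lta, Ltb and Lif reached 0.005, the smallest p it allows (adjusted p = 0.0176 over 22767 genes). Of those genes 34.2% had an adjusted p of at most 0.05 and 28.4% reached the smallest p. The exact p was 0.02 for Il5, 0.03 for Il13 and 0.04 for Il22 (adjusted p = 0.0547, 0.0781 and 0.10). For Il4 and Il9 it was 0.24 and 0.4.

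Between the genotypes, no member was called in either culture, and among tested members Il13 after stimulation had the fold change farthest from 0. In unstimulated Treg 5 members were tested and 0 called, where 0.135% of all tested genes were called, 0.0507% higher and 0.0845% lower in CD18Foxp3 Treg. In stimulated Treg 8 members were tested and 0 called, where the quasi-likelihood test called 0% of 11930 genes. There, 583 genes had an unadjusted p under 0.05, DESeq2 called 22 (0.184%) and edgeR's likelihood ratio test 16 (0.134%). Itgb2 itself, the deleted gene, had a log2 fold change of -0.94 (SE 0.17, adjusted p = 0.216, edgeR) in stimulated Treg and of -0.85 (SE 0.09, adjusted p = 0.00408, edgeR) in unstimulated Treg, where it was called in 1 of 6 fits with single libraries left out (adjusted p = 5.88e-05 to 0.0460, edgeR), the one without CD18wt replicate 3.

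Stimulated CD18Foxp3 Treg held 148 exon reads of Il13 in all and stimulated CD18wt Treg 8, a ratio of 16.2 per exon read sequenced. The 3 CD18Foxp3 libraries lay above the 3 CD18wt libraries in TPM, as did those of 5.02% of all tested genes (4.41% lay below), and Il13 was the only member whose stimulated genotypes did not overlap. In this comparison Il13 had enough reads for the test through the CD18Foxp3 libraries alone. The log2 fold change was 3.98 (SE 0.74, unadjusted p = 1.63e-04, adjusted p = 0.216, edgeR quasi-likelihood test). DESeq2 called Il13 (adjusted p = 7.29e-04), as did edgeR's likelihood ratio test (adjusted p = 1.59e-05) and the quasi-likelihood test without a filter on low counts (adjusted p = 1.25e-04). The other 8 alternatives did not, and over all 11 the log2 fold change was 2.53 to 4.25. When single libraries were left out it was 3.51 to 4.33 with adjusted p-values of 0.259 to 0.993 (edgeR), and without stimulated CD18Foxp3 replicate 1 it was 3.71. The interaction of genotype and stimulation was 4.71 for Il13 (SE 1.44, unadjusted p = 0.00481, adjusted p = 0.987, edgeR).

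**Figure D3:**
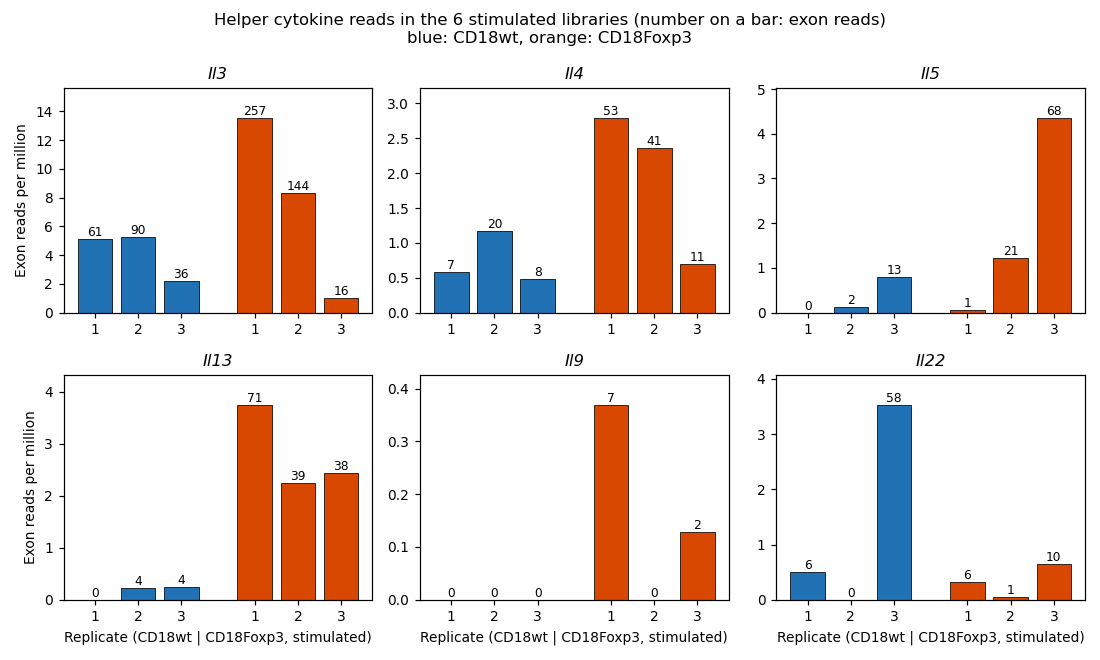
Exon reads scaled to depth (RPM, vertical axes from 0) of 6 helper cytokines in the 3 stimulated CD18wt (blue) and 3 stimulated CD18Foxp3 libraries (orange), with the exon reads on each bar. Il13 is the gene whose bars separate the genotypes, whereas Il5 and Il22 rest mostly on replicate 3.

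The other type 2 members, Il4 and Il5, had positive log2 fold changes and were not called. Il4 had 35 reads in stimulated CD18wt and 105 in stimulated CD18Foxp3 Treg and a log2 fold change of 1.35 (SE 0.65, adjusted p = 0.998, edgeR), and Il5 had one of 2.53 (SE 1.26, adjusted p = 0.998, edgeR). For Il3 it was 0.86 (SE 0.73, adjusted p = 0.998, edgeR). None of these passed. When single libraries were left out, Il5 ranged from 0.98 to 4.61 and Il3 from 0.14 to 1.37, and without stimulated CD18Foxp3 replicate 1 Il3 had 0.14 and Il4 1.00. Among stimulated libraries the highest Il3 and Il4 were both in CD18Foxp3 replicate 1 and the highest Il5 in CD18Foxp3 replicate 3, where Il3 was lowest.

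Tnf, Lta and Ltb were on average lower in stimulated CD18Foxp3 than in stimulated CD18wt Treg, and none passed the test. The log2 fold changes were -0.32 (SE 0.19) for Tnf, -0.38 (SE 0.19) for Lta and -0.56 (SE 0.37) for Ltb, each with an adjusted p of 0.998 (edgeR). For Ltb the difference was -0.21 without stimulated CD18Foxp3 replicate 1. Lif had a log2 fold change of 0.12 (SE 0.26). In unstimulated Treg the log2 fold change was 0.49 for Tnf (SE 0.26, adjusted p = 0.609, edgeR), although all 3 CD18Foxp3 libraries lay above all 3 CD18wt libraries in TPM, as they did for 8.74% of all tested genes, with 6.9% not overlapping in the other direction. Without unstimulated CD18wt replicate 3 it was 0.22. Il4 had -0.61 (SE 0.44, adjusted p = 0.728, edgeR), and Lta, Ltb and Lif had -0.10, -0.03 and 0.06.

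The interaction asks whether the response to stimulation differed between the genotypes. No member passed, and 0 of 12636 tested genes were called by the quasi-likelihood test, with 485 at an unadjusted p under 0.05 and 1 gene called by DESeq2. The interaction was -0.81 for Tnf (SE 0.34, unadjusted p = 0.0306) and 1.94 for Il4 (SE 0.81, unadjusted p = 0.0280), both with an adjusted p of 0.987 (edgeR). With unstimulated CD18wt replicate 3 left out that of Tnf was -0.55 (unadjusted p = 0.0511), and without stimulated CD18Foxp3 replicate 1 that of Il4 was 1.60 (unadjusted p = 0.0834). The rise of Il13 was called in CD18Foxp3 Treg and not in CD18wt Treg, where the few reads leave wide SEs, and the test of that difference, the interaction of 4.71 above, did not pass.

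**Figure D4:**
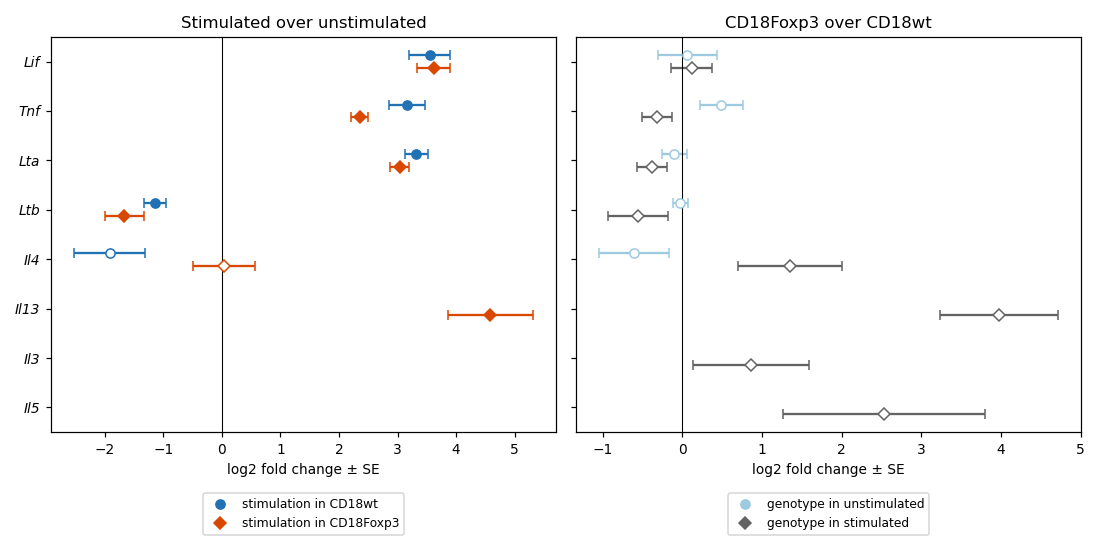
Log2 fold change with its SE (horizontal axes) of the tested genes on stimulation (left; circles CD18wt, diamonds CD18Foxp3) and between genotypes (right; circles unstimulated, diamonds stimulated). Filled symbols passed the threshold, and the rise of Il3 from 0 reads is left out. Tnf, Lta and Lif rise and Ltb falls in both genotypes, and no genotype difference passed, with Il13 farthest from 0 at 3.98.

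Genes that act with the members were read from 5 lists. Among 18 receptor genes of these cytokines 10 were tested, of which 0 were called higher and 7 lower after stimulation in each genotype, with a median log2 fold change of -0.85 in CD18wt and -0.81 in CD18Foxp3 Treg. That is 70% of those tested, where 14.9% of all tested genes in CD18wt and 17.6% in CD18Foxp3 Treg were called lower. Il9r, the receptor chain of IL-9, fell by 3.25 (SE 0.57) and 2.35 (SE 0.29). Il13ra1, a chain of the receptor of IL-13 and IL-4, fell by 2.57 (SE 0.51) and 2.10 (SE 0.35). Il10rb, a chain shared by the receptors of IL-10 and IL-22, fell by 1.21 (SE 0.17) and 1.00 (SE 0.10) (edgeR, adjusted p between 3.74e-05 and 0.00111 for these 6 values). With unstimulated CD18wt replicate 3 left out, 6 receptor genes were called lower in CD18wt Treg. Without stimulated CD18Foxp3 replicate 1, 7 were called lower in CD18Foxp3 Treg and Ltbr, the lymphotoxin β receptor gene, which had been too low to be tested, was called higher (log2 fold change 3.46, SE 0.83, adjusted p = 0.00356, edgeR). Unstimulated CD18Foxp3 libraries held 4 reads of Ltbr in all, so it entered that fit through stimulated libraries alone. The call of Ltbr was thus set by the choice of tested genes.

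Of 24 transcription factor genes that act on these cytokines, 22 were tested. In CD18wt Treg 5 were called higher and 2 lower, 31.8% of those tested, and in CD18Foxp3 Treg 5 and 3, 36.4%. These shares are near the 33.6% and 38.6% of all tested genes. Without unstimulated CD18wt replicate 3, 5 were called higher and 4 lower in CD18wt Treg, and without stimulated CD18Foxp3 replicate 1, 6 and 3 in CD18Foxp3 Treg. Irf4, a factor of activated T cells, rose by log2 fold changes of 3.67 (SE 0.19) and 3.94 (SE 0.19), Tbx21, the gene of T-bet, by 2.01 (SE 0.22) and 1.96 (SE 0.29), and Rel, an NF-κB subunit, by 1.65 (SE 0.14) and 1.98 (SE 0.21). Bcl6, the repressor of follicular T cells, fell by 2.75 (SE 0.25) and 2.28 (SE 0.26). Maf fell by 1.46 (SE 0.20) in CD18wt Treg, and Junb by 2.55 (SE 0.34) and Stat5b by 0.64 (SE 0.12) in CD18Foxp3 Treg. In CD18Foxp3 Treg Maf had -0.50 (adjusted p = 0.00310, edgeR), under the fold change of 1.5. Stat5b had -0.40 in CD18wt Treg (adjusted p = 0.0210, edgeR). The interactions of Maf and Stat5b did not pass (adjusted p = 0.847 and 0.987, edgeR). In CD18wt Treg Junb was not called, with 311 TPM in unstimulated replicate 3, 3423 and 3711 TPM in the other unstimulated libraries and 627 to 767 TPM in stimulated ones. Without that library Junb was called lower in CD18wt Treg (-2.67, SE 0.16, adjusted p = 3.04e-07, edgeR). Without stimulated CD18Foxp3 replicate 1, in CD18Foxp3 Treg, Junb had -2.21 (SE 0.07, adjusted p = 1.30e-09, edgeR) and Stat5b -0.55, which was under the fold change of 1.5. Between the stimulated genotypes 0 of these 22 genes were called. TPM of the genotypes did not overlap for 4 of them, with Gata3, Batf and Ahr higher and Relb lower in CD18Foxp3 Treg, where 5.02% of all tested genes lay higher and 4.41% lower in this way. Gata3, the defining factor of type 2 helper cells, had 88.0 to 136 TPM in stimulated CD18wt and 153 to 214 TPM in stimulated CD18Foxp3 libraries. Its log2 fold change of 0.69 (SE 0.20, adjusted p = 0.709, edgeR) did not pass. Batf had 0.56 (SE 0.22, adjusted p = 0.932, edgeR), Ahr 0.70 (SE 0.21, adjusted p = 0.724, edgeR) and Relb -0.38 (SE 0.16, adjusted p = 0.970, edgeR).

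Of 8 genes for mRNA decay and ligand shedding, 2 were called higher in CD18wt Treg, and 2 higher and 2 lower in CD18Foxp3 Treg. These are 25% and 50% of those tested, against 33.6% and 38.6% of all tested genes. Rc3h1, the gene of Roquin-1, rose by 0.67 (SE 0.14) and 0.73 (SE 0.16). Zc3h12d rose by 0.94 (SE 0.14) in CD18wt and Rc3h2 by 1.04 (SE 0.19) in CD18Foxp3 Treg. In the other genotype both were under the fold change of 1.5. Zc3h12d had 0.49 in CD18Foxp3 (adjusted p = 0.00882, edgeR) and Rc3h2 0.57 in CD18wt Treg (adjusted p = 0.00380, edgeR). Their interactions did not pass (adjusted p = 0.987, edgeR). Zfp36, the gene of tristetraprolin, which binds AU-rich elements of Tnf and other cytokine mRNAs, fell by 3.27 (SE 0.13) in CD18Foxp3 Treg, and its relative Zfp36l2 by 2.43 (SE 0.14). In CD18wt Treg Zfp36 was not called, with 99.9 TPM in the lowest unstimulated library, 546 and 592 TPM in the others and 73.1 to 76.1 TPM in stimulated ones. That lowest library was replicate 3, and without it 2 genes were called higher and 2 lower in CD18wt Treg, with Zfp36 at -3.30 (adjusted p = 3.29e-08, edgeR), Zfp36l2 at -2.77 (adjusted p = 3.79e-05, edgeR), Rc3h2 called and Rc3h1 under the fold change of 1.5. Without stimulated CD18Foxp3 replicate 1 Rc3h1 was under it in CD18Foxp3 Treg too (0.53). Between the stimulated genotypes 0 of these 8 genes were called. TPM of the genotypes did not overlap for 3 of them, Zfp36, Zfp36l2 and Zc3h12d, all lower in CD18Foxp3 Treg, as were 4.41% of all tested genes. Their log2 fold changes were -0.12, -0.54 and -0.25.

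Of 14 other ligands of the TNF superfamily, Tnfsf4, the gene of OX40 ligand, rose in both genotypes, by 3.04 (SE 0.51) and 3.59 (SE 0.33). It was the only one of 10 tested called in CD18wt Treg. In CD18Foxp3 Treg Tnfsf13b, the gene of BAFF, fell by 1.72 (SE 0.35), and the other 7 of 9 tested were not called. Tnfsf13b had -1.45 in CD18wt Treg (adjusted p = 0.0458, edgeR). The shares called were 10% in CD18wt and 22.2% in CD18Foxp3 Treg, under the 33.6% and 38.6% of all tested genes. Without the libraries that stood apart, Tnfsf10 was also called lower in CD18wt Treg, and Cd40lg lower and Cd70 higher in CD18Foxp3 Treg. Cd70 had been too low to be tested in CD18Foxp3 Treg with all libraries, so its call depends on the choice of tested genes. Between the stimulated genotypes 0 of 10 were called. In TPM Tnfsf10 lay higher (0.71, SE 0.17, adjusted p = 0.489, edgeR) and Tnfsf11 lower (-0.62, SE 0.15, adjusted p = 0.523, edgeR) in CD18Foxp3 Treg without overlap. Of all tested genes 5.02% and 4.41% did so, and 0 of 11 receptor and 0 of 8 other T cell cytokine genes. Of 12 other T cell cytokine genes 7 were tested in each genotype, with 3 called higher in CD18wt and 4 in CD18Foxp3 Treg and 1 lower in each. That is 57.1% and 71.4% of those tested, against 33.6% and 38.6% of all tested genes. Il2 and Csf2, called higher in both genotypes, had enough reads for the test through stimulated libraries alone. Their place among the genes called higher was thus set by the choice of tested genes. Il2 rose by 7.38 (SE 0.79) and 8.23 (SE 0.83) and Il10 by 2.69 (SE 0.27) and 3.26 (SE 0.28), while Il21 fell by 2.10 (SE 0.36) and 2.05 (SE 0.48). Ifng was called higher in CD18Foxp3 Treg, but not without stimulated replicate 1 (adjusted p = 0.0568, edgeR), and in CD18wt Treg only without unstimulated replicate 3 (adjusted p = 0.00370, edgeR). In unstimulated Treg Il21 was lower in CD18Foxp3 than in CD18wt cells with a log2 fold change of -1.78 (SE 0.22, adjusted p = 0.00579, edgeR), the one call between genotypes in these lists. When single libraries were left out it was called in 2 of 6 fits, among them that without CD18wt replicate 3 (adjusted p = 0.00102, edgeR), with an adjusted p of up to 0.0547.

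Basophils and mast cells also make several of these cytokines. Their markers Mcpt8, Fcer1a and Ms4a2 had no read in any of the 12 libraries, and the 6 markers listed for them summed to at most 0.886 TPM. Ncr1 of NK cells and Ear2 of eosinophils had no read either. Every other marker listed for these cell types was read in some library. Of 5 eosinophil markers the sum was at most 0.498 TPM. The 6 B cell markers summed to 27.3 to 39.2 TPM in unstimulated and 9.48 to 21.5 TPM in stimulated libraries, and the 6 markers of CD8 T cells and NK cells to 27.7 to 38.9 and 13.96 to 28.4 TPM. Of these CD8 and NK markers 3 were tested, and 2 were called lower after stimulation in each genotype. They were Klrb1c (adjusted p = 1.32e-05 in CD18wt and 7.97e-04 in CD18Foxp3 Treg, edgeR) and Cd8b1 (adjusted p = 0.00293 and 0.00963, edgeR). Klrb1c had enough reads for the test through unstimulated libraries alone, so its call was set by the choice of tested genes. Of all tested genes 14.9% in CD18wt and 17.6% in CD18Foxp3 Treg were called lower. Those of myeloid cells summed to 4.31 to 19.7 and 5.76 to 11.3 TPM. The part of B cells, which also express Ltb, in the fall of Ltb was not tested. In bulk RNA fewer expressing cells and less RNA per cell cannot be told apart.

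The members varied with different genes across libraries. By Pearson's r of log2 CPM over 12 libraries and among 12636 genes, the genes most like Tnf were Phf10 (0.990), Dctd (0.987) and Lrrc32 (0.984). For Lta they were Nop16 (0.994), Ranbp1 (0.993) and Rangrf (0.993), for Ltb Ppp1r9b (0.994), Bckdha (0.990) and Fbxo46 (0.989), and for Lif Sik3 (0.993), Mcm8 (0.992) and Adarb1 (0.991). These high values share the contrast of cultures. For Il3 they were Mrps22 (0.985), Nup54 (0.977) and Lsm2 (0.970). Lower likeness was found for Il5 with Gmppa (0.926), Cryz (0.875) and Gm49383 (0.866), for Il13 with Gspt2 (0.909), Cux1 (0.901) and Stap1 (0.896), and for Il4 with Immp1l (0.856), Tmem230 (0.848) and Gm26778 (0.847). When each library was taken relative to the mean of its group, Il3 went with Il4 (r = 0.79 over 12 libraries) and against Il5 (r = -0.88), where the 6 unstimulated libraries hold no read of Il3 or Il5.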

How the data were processed

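Poly(A) RNA was sequenced after 15 PCR cycles in 59-base single reads. The authors mapped and counted reads in CLC Genomics Workbench 20.0 with the build GRCm38 and deposited counts of exon and intron reads per gene, without normalization, and TPM, which scale exon reads by exon length to a constant sum. The preparation did not mark strand. Exon counts were tested in R 4.3.3 with edgeR 4.0.16 (filterByExpr with a minimum count of 10, TMM, quasi-likelihood test with robust dispersion, Benjamini-Hochberg adjustment over all genes tested), separately for stimulation in each genotype, for genotype in each culture and for their interaction. The standard error is the log2 fold change divided by the square root of F. For single genes, an exact permutation test on log2(TPM + 1) was used. Tests were checked on simulated data. In the simulated counts the changed genes had more reads on average than Il4, Il5, Il9, Il13 and Il22, and no library stood apart. The check therefore does not cover such genes or libraries. Alternatives were DESeq2 1.42.0, edgeR's likelihood ratio test, other normalizations and filters, limma 3.58.1 on log2(TPM + 1) or log2(TPM + 0.1), reads placed uniquely, an adjusted p of 0.05, a replicate block, 1 fit of all 12 libraries and each library left out. Python 3.11.15, pandas 2.3.3, numpy 2.4.6 and matplotlib 3.10.9 were used for tables and figures.

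The 10 members are all named. Of the lists, genes past the threshold with the 3 largest rises and falls are named, and Gata3, Batf, Ahr, Relb, Ltbr, Ifng, Tnfsf10, Tnfsf11, Cd40lg, Cd70, Zfp36, Junb and Osm beyond that were chosen after their values were seen. The members and lists were chosen with earlier results of these data known. Printing values without the 2 libraries that stood apart was decided after seeing the data. Sequences are from RefSeq (GRCm38.p6), where motifs were searched on both strands. Protein sequences were not used here.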

Additional observations from a re-analysis of the deposited data

Results flagged for a closer look

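Intron reads of Lta lay outside the exon counts that were compared and were higher in every stimulated than in every unstimulated library. Scaled to depth (RPM, relative to exon reads) they were 0.296 to 1.03 in the 6 unstimulated and 9.80 to 15.8 in the 6 stimulated libraries. No test was run on them.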

How the results depend on the processing

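The number of members called on stimulation was within 1.5 times of 5 and 6 under all alternatives run. With a replicate block it was again 5 in CD18wt and 6 in CD18Foxp3 Treg, and 3588 and 4899 genes were called. Over the genes, calls between genotypes in unstimulated Treg moved from 16 to 86 with DESeq2 and 86 with the likelihood ratio test, 134 without a filter, 1 and 5 with limma (pseudocounts of 1 and 0.1), 33 at an adjusted p of 0.05, 0 with all 12 libraries in 1 fit and 0 to 44 with single libraries left out, the 44 without CD18wt replicate 3. In stimulated Treg 0 became 22 with DESeq2, 16 with the likelihood ratio test, 61 without a filter, 1 with limma and a pseudocount of 0.1, and 0 to 2 with single libraries left out, and for members 0 became 1 (Il13) with each of the first 3. For the interaction 0 became 1 with DESeq2, 6 with the likelihood ratio test, 31 without a filter and 1 with limma at either pseudocount. With a replicate block 41 genes were called in the unstimulated, 1 in the stimulated genotype comparison and 0 for the interaction. Same-numbered libraries did not deviate together in every pair (r of deviations from -0.09 to 0.10 within CD18wt and from 0.07 to 0.15 within CD18Foxp3), and only within CD18Foxp3 did each library correlate best with its own number. With the signs flipped within replicate numbers in place of permuted libraries, 0 of the 5 members had an adjusted p of at most 0.05, since the smallest p is then 0.0313. The cause of the other changes was not tested.

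Several values near 0 changed sign. Il4 on stimulation in CD18Foxp3 Treg was -0.034 with upper quartile normalization, -0.045 with a replicate block and -0.34 to 0.42 with single libraries left out. In unstimulated Treg the genotype difference of Ltb was 0.0012 and 0.0013 with limma and -0.087 to 0.057 with libraries left out, where Lta was -0.20 to 0.091 and Lif -0.23 to 0.29. In stimulated Treg Lif was -0.095 to 0.40. Its interaction was -0.053 with limma and a pseudocount of 0.1, and -0.16 to 0.36 with libraries left out. Ltb missed the threshold in CD18wt Treg with all 12 libraries in 1 fit (adjusted p = 0.0127, edgeR) and in CD18Foxp3 Treg with limma (adjusted p = 0.0123 and 0.0126). Il4 in CD18wt Treg passed it by DESeq2, the likelihood ratio test, limma with a pseudocount of 1 and an adjusted p of 0.05, but in no fit with single libraries left out. With 3 libraries a group and up to 71 reads for Il13 and fewer for Il5, Il9 and Il22 in a library, depth limits what can be said of these genes, and fold changes of low genes on the log2(TPM + 1) scale understate the change.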
